A study of Mus musculus with 2 samples.

Results

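The T-box genes T, Eomes, Tbx6, Tbx3, Tbx4 and Tbx2 were described in single cells of mouse embryoid bodies and mouse yolk sac. They were taken by symbol from the 33456 genes listed, which hold 17 T-box genes in all, and all 6 are counted here whether or not they were detected. The embryoid body (EB) library came from C57BL/6 embryonic stem cells differentiated in serum until day 4 under conditions labelled as favouring hemangiogenic mesoderm, the precursor of blood and vessels. The yolk sac (YS) library pooled C57BL/6 yolk sacs from equal numbers of E9.5 and E10.5 embryos. Dead cells were sorted out of both libraries after freezing, and about 70% of Ter119+ red cells were also removed from the yolk sac. A barcode was taken as a cell when it passed the UMI minimum of its library, with at most 10% of its UMIs from mitochondrial genes, where a UMI counts 1 captured transcript. This left 1878 EB cells with 6233 UMIs or more (median 25547) and 775 YS cells with 6557 UMIs or more (median 28461). Each group is 1 library, so no test between groups was possible. Every interval below is a 95% interval that covers counting error only. The intervals are exact Poisson for levels, Clopper-Pearson for shares of cells, Wilson-based for differences of shares and exact conditional binomial for ratios. Checked against the labels, 136 EB cells were hemangiogenic progenitor-like by their markers, and the yolk sac held erythroid-like (154), endothelial-like (48) and extraembryonic endoderm-like (27) cells. There were 2 barcodes that were cells in both libraries. The EB cells with them held 33 T UMIs, and the YS cells with them held 0 UMIs of each of the 6 genes.

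T-box proteins are transcription factors that share a DNA-binding domain, the T-box. T, also called Brachyury, and Eomes, also called Tbr2, are switched on in the primitive streak, where epiblast cells leave to become mesoderm and endoderm. T is needed for posterior mesoderm and notochord, and Eomes for definitive endoderm and for the earliest mesoderm, including that of the heart and blood. Tbx6 acts after them in paraxial mesoderm. Tbx2 and Tbx3 are closely related repressors of limb, heart and extraembryonic tissues, and Tbx3 also acts in pluripotent cells. Tbx4 is known from the hindlimb and the allantois, the extraembryonic mesoderm that forms the umbilical vessels.

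In GRCm38 the 6 genes lie on 5 chromosomes, all on the plus strand. T is at chr17:8434423-8442496, Eomes at chr9:118478212-118486132, Tbx6 at chr7:126781483-126785560 and Tbx3 at chr5:119670669-119684724. Tbx2 (chr11:85832551-85841948) and Tbx4 (chr11:85886422-85916097) are neighbours 44.5 kb apart, and Tbx3 has Tbx5, another T-box gene, 147.9 kb downstream. Tbx3 overlaps the antisense gene Tbx3os1, and Eomes overlaps the antisense gene Gm33460. Whether the counting used strand is not given in the sources used here, so UMIs of these partners could not be told apart. The 250 bases before the RefSeq start sites (GRCm38.p6) of T, Eomes and Tbx6, 3 genes of the streak and its mesoderm, are printed here. No such sequence of Tbx2 or Tbx3 was in the sources used here. That of Tbx4 lay inside the gene as placed above, so it is not printed. Capitals mark matches, on either strand, to the core TCAAAG of sites for the WNT pathway factors TCF and LEF, to the promoter element known as the CCAAT box, and to the TATA box, searched here as TATAAA.
T, chr17:8434173-8434422, plus strand: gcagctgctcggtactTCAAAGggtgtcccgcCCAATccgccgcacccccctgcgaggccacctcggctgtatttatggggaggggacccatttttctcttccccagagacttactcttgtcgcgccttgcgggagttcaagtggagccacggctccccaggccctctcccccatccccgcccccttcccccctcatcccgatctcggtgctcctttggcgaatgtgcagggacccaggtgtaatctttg
Eomes, chr9:118477939-118478188, plus strand: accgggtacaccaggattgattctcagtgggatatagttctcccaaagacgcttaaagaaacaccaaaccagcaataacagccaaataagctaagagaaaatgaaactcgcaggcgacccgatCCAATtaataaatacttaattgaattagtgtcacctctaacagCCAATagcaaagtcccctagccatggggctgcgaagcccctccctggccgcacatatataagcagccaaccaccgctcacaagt
Tbx6, chr7:126781233-126781482, plus strand: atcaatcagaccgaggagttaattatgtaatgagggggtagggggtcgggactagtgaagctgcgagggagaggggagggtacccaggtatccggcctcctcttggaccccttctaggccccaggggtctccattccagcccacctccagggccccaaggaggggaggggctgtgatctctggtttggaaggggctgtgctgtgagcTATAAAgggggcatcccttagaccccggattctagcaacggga

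The T sequence held the TCF and LEF core 234 bases before the start and a CCAAT box 218 bases before it. Eomes held CCAAT boxes at 127 and at 84 bases, and Tbx6 held a TATA box at 43 bases. Over the same window of 32851 RefSeq promoters, 13.8% held the TCF and LEF core, 33.8% a CCAAT box and 12.4% a TATA box. GGTGTGA, the core that T-box proteins bind, was in 3.33% of all promoters and in none of these 3. These matches are letters in a window and were not measured as binding sites.

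T and Eomes were found in most EB cells. T had 11149 UMIs in 1423 of 1878 EB cells (75.8%, 73.8 to 77.7), with a median of 5 UMIs in those cells and 50 in the highest. Eomes had 7300 UMIs in 1387 cells (73.9%, 71.8 to 75.8), with a median of 4 and a highest of 26. Both were therefore present across much of the culture and not in a small group of cells. Tbx6 had 444 UMIs in 291 cells (15.5%, 13.9 to 17.2), mostly at 1 UMI per cell. Tbx3 had 2212 UMIs in 813 cells (43.3%, 41.0 to 45.6), and Tbx2 had 226 UMIs in 140 cells (7.45%, 6.31 to 8.74). Tbx4 had 2 UMIs, in 2 cells.

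The share of cells with a UMI depends on how many UMIs were read from a cell. With every cell thinned to 6000 UMIs, T was detected in 53.5% of EB cells, Eomes in 48.2%, Tbx3 in 19.0%, Tbx6 in 3.94%, Tbx2 in 2.45% and Tbx4 in 0%. The share of cells that would hold a UMI from free RNA alone, taken from empty droplets, was 3.83% for T, 3.47% for Eomes, 1.44% for Tbx3, 0.177% for Tbx6 and 0.145% for Tbx2, each below the share measured at full depth. The counts of T varied most between cells. At 6000 UMIs per cell its variance was 2.35 times its mean (Fano factor), against 1.59 for Eomes, 1.45 for Tbx3, 1.24 for Tbx6 and 1.17 for Tbx2, where pure counting gives a value near 1 and the excess also depends on a gene's level.

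Levels of 5 of the 6 genes were higher in EB than in YS. Levels are given in CPM, UMIs summed over the cells of a group and scaled to a common total. T was 219.9 CPM (215.9 to 224.1) in EB and 0.455 (0.227 to 0.814) in YS, a 484-fold difference (270 to 969). Eomes was 144.0 CPM in EB and 0.0827 in YS, 1741-fold (482 to 14382), and Tbx6 was 8.76 and 0.0413 CPM, 212-fold (37.8 to 8385). These 3 genes of the streak and early mesoderm rested on 11, 2 and 1 UMIs in YS, which is why the intervals are wide. The YS UMIs of each gene came from 1 cell, and the intervals do not allow for that. Tbx3 was 43.6 CPM in EB and 1.36 in YS, 32.0-fold (22.7 to 46.6). Tbx2 was 4.46 and 1.24 CPM, 3.59-fold (2.45 to 5.45), the smallest difference of the 5. Tbx4 went the other way, with 0.0395 CPM in EB and 0.455 in YS, 11.5-fold higher in YS (2.52 to 107). At a 2-fold difference, 5 of the 6 genes were thus higher in EB and 1 in YS. Of the 15621 genes with at least 10 UMIs in both libraries together, 18.5% were 2-fold higher in EB and 21.5% in YS.

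Among the other 11 T-box genes, 5 had 10 UMIs or more. Tbx20, known from the heart, was 17.5 CPM in EB and 52.4 in YS, higher in YS by a factor of 2.75 to 3.27. Tbx18, known from the epicardium, was 21.7-fold higher in YS (6.76 to 111). Of its 31 YS UMIs 29 lay in 2 cells, and the interval does not allow for that. Tbx1, a pharyngeal gene, had 39 UMIs in EB and 0 in YS. This is 6.20-fold higher in EB against a floor of 3 counts, and the interval of the ratio starts at 4.81. Mga, a repressor with a T-box, was 33.1 and 23.0 CPM, and Tbx5, known from forelimb and heart, was 0.434 and 0.455. The remaining 6 (Tbx10, Tbx15, Tbx19, Tbx21, Tbx22 and Tbr1) had at most 8 UMIs in either library.

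The genes that act around the T-box factors in the streak were mostly higher in EB as well. All 9 signals (WNT, FGF and NODAL ligands, Bmp4 and Tdgf1) passed 2-fold in EB, with Fgf8 at 414.2 CPM against 0.124 and Wnt3 at 55.7 against 0.538. Of the 14 streak and mesoderm factors 13 did, among them Mesp1, a mesoderm regulator, at 495.6 against 0.0827 CPM. Foxa2 was the exception, at 1.997-fold. All 7 feedback and signal genes, such as the WNT inhibitor Dkk1, passed too. Of the 7 allantois genes 2 were 2-fold higher in EB and 4 in YS, with Pitx1, a hindlimb regulator of Tbx4, at 0.533 CPM in EB and 8.48 in YS. Together 31 of the 37 genes were higher in EB and 4 in YS, and their median log2 ratio was 4.73, against 6.36 over the 6 T-box genes and -0.0017 over all genes.

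The 5 genes found in EB were spread differently over the EB states. Cells were grouped into 13 clusters with all 17 T-box genes left out of the clustering, so that the T-box levels below did not shape the clusters. A cluster has a name with "-like" only where its leading genes met a list of marker genes. T was 501.2 CPM (477 to 527) in the germ cell-like cluster, whose leading genes also include Cdx2 and Fgf8, and T was found in 96.9% of its cells. At a coarser clustering (resolution 0.6) another cluster was highest, at 353.8 CPM. It was 412.0 CPM in an unnamed cluster led by Fst and Apln, 388.0 in one led by Ddit4 and Fgf5 and 371.2 in one led by Sfn and Krt19, and neighbours in the order of these 3 do not differ beyond counting error, while the first (393 to 431) and the last (354 to 389) do. A middle group of 4 clusters, among them the epiblast-like and the primitive streak and nascent mesoderm-like ones, lay between 200.3 and 234.8 CPM. T was lowest in allantois and extraembryonic mesoderm-like cells, at 17.0 CPM (12.9 to 21.9), and in definitive endoderm-like cells, at 25.3 CPM (19.6 to 32.1).

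Eomes followed another order. It was highest in an unnamed cluster led by Etv2 and Kdr, the genes of hemangiogenic mesoderm, at 255.1 CPM (243 to 268), and in the cluster like the streak and nascent mesoderm, at 246.2 CPM (234 to 259), which do not differ beyond counting error. The germ cell-like cluster, highest for T, had 41.9 CPM of Eomes (35.1 to 49.7), and the Etv2 and Kdr cluster had 76.8 CPM of T (70.0 to 84.1). Definitive endoderm-like cells kept 140.6 CPM of Eomes beside 25.3 CPM of T. Naive pluripotent-like cells had the lowest Eomes, 21.6 CPM (13.9 to 32.2).

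Tbx6 was concentrated in 2 clusters. The unnamed cluster led by Mesp1, Dll3 and Hoxb1 had 26.6 CPM (22.3 to 31.4), and the streak and nascent mesoderm cluster had 20.9 CPM (17.5 to 24.7). They held 30.6% and 30.9% of the library's Tbx6 UMIs, and the Fst and Apln cluster came next at 10.4 CPM. Tbx6 was 1.13 CPM or lower in the definitive endoderm-like, hemangiogenic progenitor-like and allantois-like cells, and the 45 naive pluripotent-like cells had 0 UMIs, which allows up to 2.70 CPM (3 counts). At clustering resolution 0.6 the highest Tbx6 cluster (19.8 CPM) shared 44 of the 192 cells of the Mesp1, Dll3 and Hoxb1 cluster.

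Tbx3 and Tbx2 were highest in the same 3 clusters, all with less than 80 CPM of T. Tbx3 was 117.7 CPM (109 to 127) in the Etv2 and Kdr cluster, 94.99 (85.0 to 106) in allantois and extraembryonic mesoderm-like cells and 85.7 (76.2 to 96.1) in hemangiogenic progenitor-like cells. Tbx2 was 21.9 CPM (17.2 to 27.4) in the allantois-like cells, 12.2 (8.80 to 16.5) in the hemangiogenic progenitor-like cells and 10.8 (8.30 to 13.7) in the Etv2 and Kdr cluster. The order of the 3 therefore differed: the Etv2 and Kdr cluster led for Tbx3, and the allantois-like cells for Tbx2. Naive pluripotent-like cells, where Tbx3 is known to act, had 7.21 CPM of Tbx3 (3.11 to 14.2), from 45 cells. Tbx20 had its highest level, 80.0 CPM, in the allantois-like cells too. The plot of the 5 genes by EB cluster shows these orders.

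**Figure D1:**
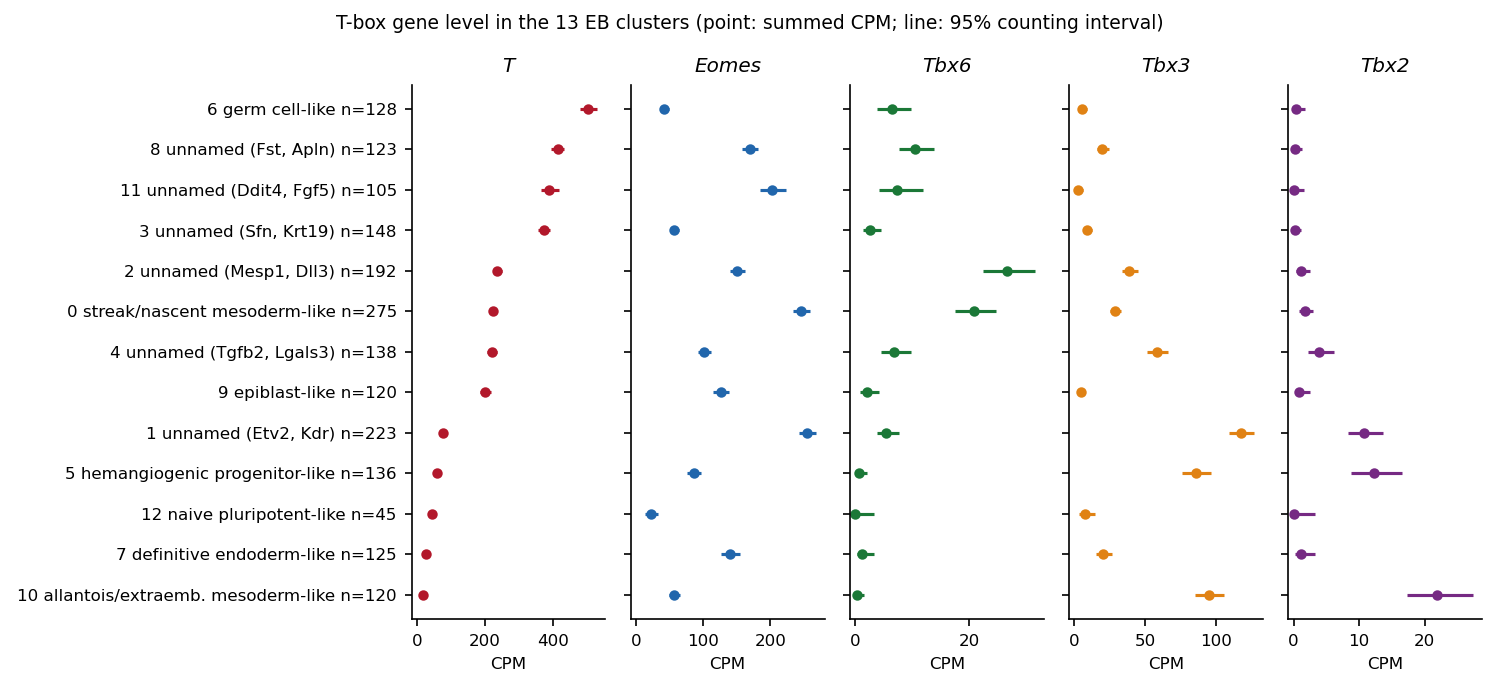
Level of T, Eomes, Tbx6, Tbx3 and Tbx2 (x axes, CPM, each with its own scale) in the 13 EB clusters (y axis, with the number of cells), sorted by T. Points are summed levels and lines 95% Poisson counting intervals. T runs from 17.0 CPM at the bottom to 501.2 at the top, while Tbx3 and Tbx2 are highest in clusters with low T.

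T and Eomes were detected together in 1094 of the 1878 EB cells (58.3%), and the 2 genes showed no mutual exclusion over the whole culture. Eomes was found in 76.9% of cells with T (74.6 to 79.0) and 64.4% of cells without (59.8 to 68.8). Cells with T were also deeper, with a median of 26756 UMIs against 21077. At 6000 UMIs per cell the shares were 49.9% (46.8 to 53.0) and 46.2% (42.9 to 49.6), which overlap, and across cells Pearson's r of their normalised log levels was 0.02 over 1878 cells of 1 library. Inside clusters Eomes was higher in cells with T in 9 of 10 clusters as a level, with intervals apart in 4, among them the epiblast-like (140.4 CPM with T against 55.1 without) and naive pluripotent-like cells (43.1 against 3.34). As a share of cells after thinning it was higher in 8 of 12 clusters, with intervals apart in 0. Cells at the extremes did exist. Of 770 cells with at least 10 UMIs of T and Eomes together, 172 (22.3%) had 90% or more of these UMIs from T, 54 (7.01%) had 10% or less, and 544 (70.6%) lay between. There were 92 cells with at least 10 T UMIs and no Eomes UMI, 23 with at least 10 Eomes UMIs and no T UMI, and 67 with at least 10 of both.

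Tbx6 was found mostly beside T. Of the 291 cells with Tbx6, 270 also had T (92.8%, 89.2 to 95.5), against 72.7% (70.4 to 74.8) of cells without Tbx6. Tbx6 was 10.4 CPM (9.39 to 11.4) in cells with T and 2.36 (1.51 to 3.52) in cells without. Thinned to 6000 UMIs, T was in 62.2% (50.1 to 73.2) of 74 Tbx6 cells and 53.1% of the others, where the intervals overlap. Within clusters, the share of cells with T was higher in Tbx6 cells in 7 of the 7 clusters with at least 10 cells on each side, although the intervals were apart in 0 of them. As a level, T was higher in the Tbx6 cells of all 7, with intervals apart in 4. Cells with Tbx6 were also deeper, with a median of 29674 UMIs against 24837. After thinning, the T share was higher in 1 and lower in 1 of 2 clusters. The thinned Tbx6 share beside T was higher in 2 and lower in 6 of 12, with intervals apart in 0 either way. For Eomes and Tbx6 the direction over all cells depended on depth: Tbx6 was in 17.4% of cells with Eomes and 9.98% without at full depth, and in 2.98% and 4.83% after thinning. Eomes was 153.6 CPM in cells with Tbx6 and 141.8 in the others. Inside clusters the Eomes level was instead lower in cells with Tbx6 in all 7, with intervals apart in 2. The Eomes share there was higher in 3 and lower in 4 at full depth, apart in 0. After thinning it was lower in 2 of 2, apart in 1. Seen the other way, the Tbx6 level beside Eomes was higher in 5 and lower in 6 of 12 clusters.

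T was lower in cells with Tbx3. T was 288.5 CPM (282 to 295) in cells without Tbx3 and 148.5 in cells with it, and Tbx3 was 67.6 CPM (62.6 to 72.8) in cells without T and 37.6 in cells with it. At 6000 UMIs T was in 36.4% (31.4 to 41.6) of Tbx3 cells and 57.5% (54.9 to 60.0) of the others. The lower T level was also seen inside clusters. Among 11 clusters with at least 10 cells on each side, T was lower in cells with Tbx3 in 10, with intervals apart in 5, among them the Fst and Apln cluster (339.1 CPM with Tbx3 against 473.5 without) and the streak and nascent mesoderm cluster (169.9 against 259.2). It was higher in the hemangiogenic progenitor-like cells, at 62.1 against 51.0 CPM with overlapping intervals. The share of cells with T showed less of this: at full depth it was higher beside Tbx3 in 6 and lower in 5 of the 11, and after thinning lower in 6 of 8, with intervals apart in 0 either way. The relation was also graded. With the cells that had T sorted into 4 equal groups from low to high T, Tbx3 was 68.1, 41.2, 23.9 and 13.9 CPM, after 67.6 in cells with no T. The same held in the other direction, as T was 288.5 CPM in cells with no Tbx3 and 220.8, 158.5, 117.6 and 64.0 over 4 groups from low to high Tbx3. Detection itself was far from exclusive. At full depth T was in 71.2% (68.0 to 74.3) of Tbx3 cells and 79.2% (76.7 to 81.6) of the others. There were 579 cells with both genes, against 616 from the product of their shares, which is the number under independent detection. At 6000 UMIs there were 130 such cells, against 191 from the product.

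Tbx2 was nested in Tbx3. Of the 140 cells with Tbx2, 132 also had Tbx3 (94.3%, 89.1 to 97.5), against 39.2% (36.9 to 41.5) of the others. Tbx2 was in 16.2% of Tbx3 cells (13.8 to 19.0) and 0.751% (0.325 to 1.47) of cells without Tbx3, at 8.74 and 0.348 CPM. After thinning, Tbx3 was in 47.8% (32.9 to 63.1) of 46 Tbx2 cells and 18.3% of the others. Within 11 clusters the Tbx2 share was higher beside Tbx3 in 10, and the intervals were apart in the hemangiogenic progenitor-like cells (24.4% against 0%) and in the allantois-like cells (44.1% against 11.1%). After thinning, the Tbx2 share was higher beside Tbx3 in 3 and lower in 4 of 8 clusters, with intervals apart in 0. Tbx2 and T went apart over all cells: 51.4% (42.8 to 60.0) of Tbx2 cells had T, against 77.7% (75.7 to 79.7) of the others, and Tbx2 was 12.3 CPM in cells with no T and 0.734 in those with the most. Inside clusters the T share was lower beside Tbx2 in 3 of 4 and higher in 1, with intervals apart in 0. The T level was also lower in 3, with intervals apart in 2. In the allantois-like cells it was 17.3 CPM with Tbx2 and 16.8 without, with overlapping intervals.

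Eomes was found more often in cells with Tbx3. Eomes was in 80.7% (77.8 to 83.3) of Tbx3 cells and 68.6% (65.8 to 71.4) of the others, and after thinning in 60.5% and 45.3%. The share was higher beside Tbx3 in 10 of 11 clusters, with intervals apart in 3, and after thinning in 7 of 8, with intervals apart in 2. The Eomes level was less uniform, higher beside Tbx3 in 7 clusters (apart in 3) and lower in 4 (apart in 2). Eomes was 128.4 CPM in cells with no Tbx3 and 205.6 in those with the most, and Tbx20 was 6.26 and 49.5 CPM in the same cells. Tbx6 was in 15.9% of Tbx3 cells and 15.2% of the others at full depth, and after thinning in 2.24% (0.972 to 4.37) and 4.34% (3.37 to 5.49), which overlap. As a level, Tbx3 was lower in cells with Tbx6, at 32.5 CPM (28.9 to 36.3) against 46.2 (44.1 to 48.3). Tbx6 and Tbx2 met in 11 cells, with Tbx2 in 3.78% of Tbx6 cells (1.90 to 6.66) and 8.13% (6.83 to 9.58) of the others. Both Tbx4 cells had Tbx3 and Tbx20 and neither had T.

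**Figure D2:**
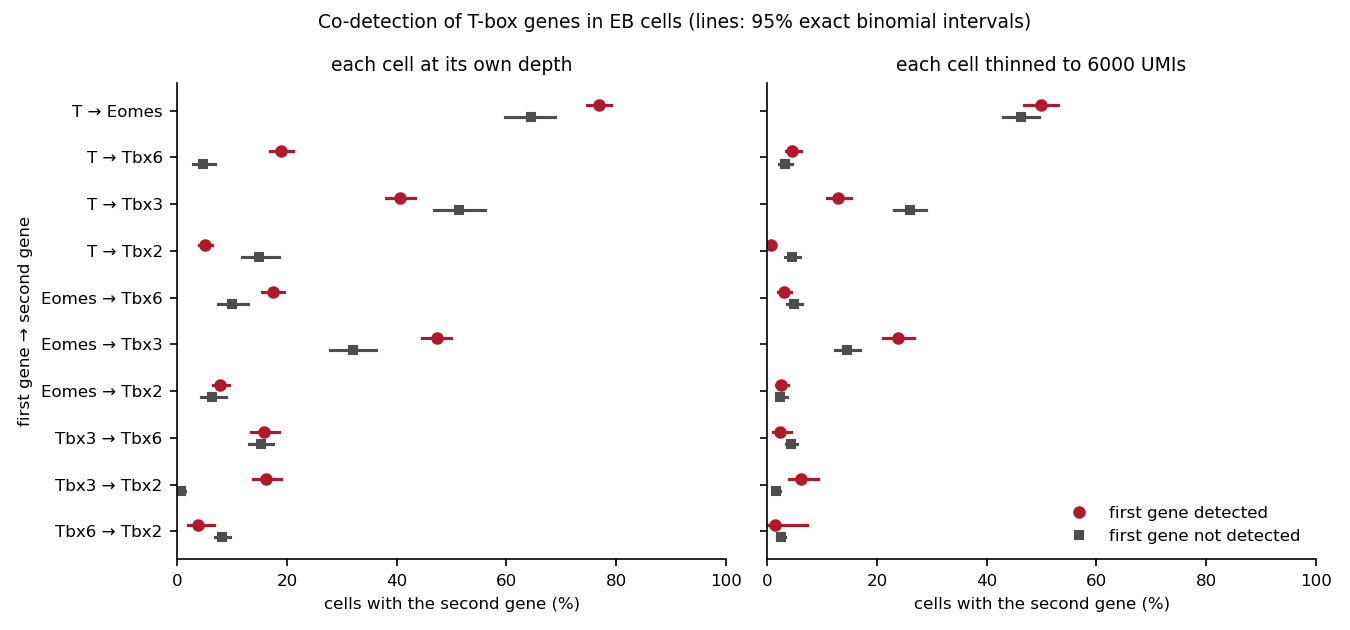
Share of EB cells with the second gene of each pair (x axis, percent) among cells where the first gene was detected (circles) or not (squares), at full depth (left) and with each cell thinned to 6000 UMIs (right). Lines are 95% exact binomial intervals. Tbx2 is seen in 16.2% of cells with Tbx3 and 0.751% of cells without, while the T and Eomes intervals overlap once depth is equal.

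**Figure D3:**
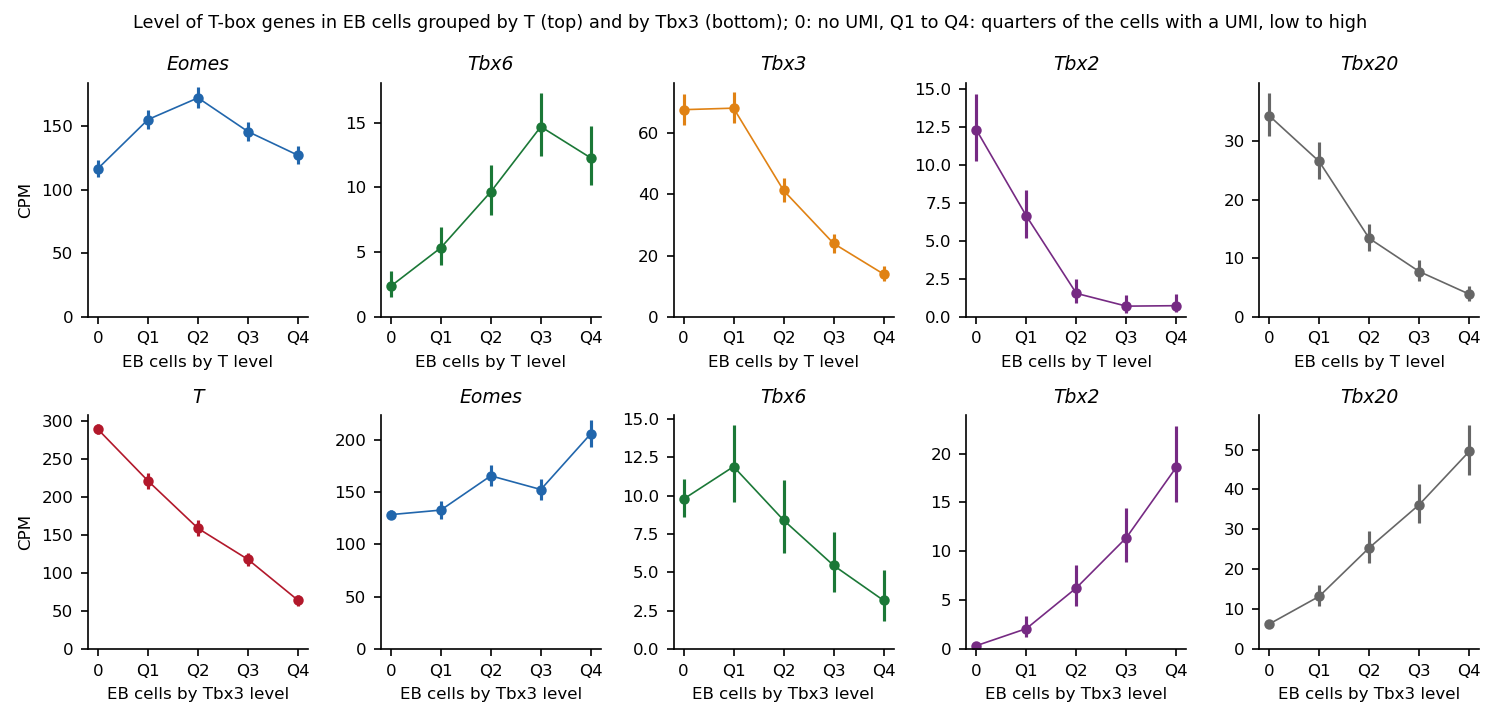
Level (y axes, CPM) of the other T-box genes in EB cells grouped by their T level (top row) or Tbx3 level (bottom row); 0 is cells with no UMI of that gene, and Q1 to Q4 are 4 equal groups of the cells with a UMI, from low to high. Lines are 95% Poisson counting intervals. Tbx3, Tbx2 and Tbx20 go down as T goes up, and T goes down as Tbx3 goes up, whereas Eomes stays between 116.8 and 172.5 CPM over the T groups.

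Most EB cells had more than 1 of the 6 genes. At full depth 98 cells had none, 354 had 1, 741 had 2, 526 had 3, 153 had 4 and 6 had 5, and deeper cells had more of them, with a median of 17154 UMIs in cells with none and 34387 in cells with 4. The commonest combination was T with Eomes alone (486 cells, 25.9%), followed by T, Eomes and Tbx3 (329 cells), T alone (196), T, Eomes and Tbx6 (121) and Eomes alone (116). Tbx6 alone was seen in 1 cell and Tbx2 alone in none.

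The genes most like each T-box gene across EB cells differed from gene to gene. Among 10420 other genes found in at least 5% of EB cells, r of at least 0.2 was reached by 1.43% of genes for T, 0.624% for Eomes, 0.154% for Tbx6, 1.25% for Tbx3 and 0.413% for Tbx2. Of the 29 streak and allantois genes found in 5% of cells, 9 reached it for T, 9 for Eomes, 4 for Tbx6, 4 for Tbx3 and 3 for Tbx2. All r below are over the same 1878 cells of 1 library, share each cell's depth, and are descriptions. T was most like Fst, which encodes the activin inhibitor follistatin (r = 0.62), Fgf8, a streak growth factor (0.57), and Pou5f1, the pluripotency factor Oct4 (0.55). Eomes was most like Tdgf1, the NODAL co-receptor Cripto (0.52), Mixl1, a streak homeobox factor (0.51), Upp1 (0.43) and Gsc, the organiser gene goosecoid (0.38). Tbx6 was most like Dll3, a Notch pathway gene of presomitic mesoderm (0.35), Mesp1 (0.31), Lef1, a WNT effector (0.30), and Snai1, a driver of the epithelial to mesenchymal transition (0.29). Tbx3 was most like Kdr, the VEGF receptor of hemangiogenic mesoderm (0.53), Pmp22 (0.52), Ppic (0.52), Vstm2b (0.48) and Msx2, a BMP target (0.48). Tbx2 was most like Hand2 (0.39), Pmp22 (0.34), Hand1 (0.34) and Msx2 (0.33), where the Hand genes are factors of heart and extraembryonic mesoderm. At 6000 UMIs per cell these r were smaller, for example 0.44 for T and Fst, 0.32 for Tbx3 and Kdr and 0.095 for Tbx2 and Hand2.

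The T-box genes divided on several shared genes. Cdx2, a posterior gene, had r = 0.31 with T and -0.33 with Eomes. Fgf8 had 0.57 with T, 0.004 with Eomes and -0.36 with Tbx3. Bmp4, a signal for ventral mesoderm, had 0.41 with Tbx3 and 0.31 with Tbx2 but -0.24 with T, and Pou5f1 was lowest of all genes with Tbx3 (-0.48) and Tbx2 (-0.30). Among the T-box genes themselves, r was 0.33 for Tbx3 and Tbx2, 0.16 for T and Tbx6, 0.16 for Eomes and Tbx3, -0.21 for T and Tbx2 and -0.32 for T and Tbx3.

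In the yolk sac, T, Eomes and Tbx6 were each seen in a single cell. All 11 T UMIs came from 1 cell of 12359 UMIs in an unnamed cluster of 31 cells led by Id2, Crabp2 and Sox11. Of 4 other genes known from the notochord that were looked up in it, that cell had 9 UMIs of Nog, 4 of Shh, 2 of Foxa2 and 0 of Noto. It had 0 UMIs of Pou5f1, Mixl1, Mesp1, Tdgf1 and Fgf8, which were common in EB cells. Its barcode was not that of an EB cell. Eomes had 2 UMIs in 1 granulocyte and mast cell-like cell, and Tbx6 had 1 UMI in 1 erythroid-like cell. In YS empty droplets T and Eomes had 0 UMIs and Tbx6 had 1.

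The yolk sac wall held low levels of Tbx3, Tbx2 and Tbx4. The wall is the smooth muscle-like, mesothelial-like, mesenchymal and fibroblast-like, endothelial-like and extraembryonic endoderm-like cells, 313 in all, and the blood classes are the erythroid-like, granulocyte and mast cell-like and macrophage-like cells, 264 in all. The unnamed clusters of 111, 56 and 31 cells were counted in neither. By enriched markers the first came closest to hematopoietic progenitors (8 of 12) and the second to megakaryocytes (6 of 10). Both of these had 0 UMIs of Tbx3 and Tbx2, and the second had 1 of Tbx4. The wall had 27 UMIs of Tbx3 in 24 cells, 27 of Tbx2 in 19 cells and 10 of Tbx4 in 7 cells, and the blood classes had 0 of each, which allows up to 0.313 CPM in them (3 counts). Free RNA alone, taken from the YS empty droplets, would put a UMI of Tbx3 in 0.0050% of cells, of Tbx2 in 0.0025%, of Tbx4 in 0% and of Tbx20 in 0.0975%. Tbx3 and Tbx2 were both 3.84 CPM in the wall (2.53 to 5.59). Tbx3 was found in every wall class, in 5.94% to 14.8% of cells, with no more than 2 UMIs in a cell, and its levels of 2.35 to 9.42 CPM had overlapping intervals. The 3 UMIs of the mesenchymal and fibroblast-like class all lay in its cluster of 9 cells, with 0 in its cluster of 33. Outside the wall, the unnamed cluster led by Id2, Crabp2 and Sox11 had Tbx3 in 19.4% of its cells (7.76 CPM, 2.85 to 16.9). Tbx2 was uneven. Of its 27 wall UMIs 14 were in smooth muscle-like cells (6.26 CPM, in 9 cells) and 10 in the 27 extraembryonic endoderm-like cells (13.4 CPM, 6.41 to 24.6), with 2 in endothelial-like cells, 1 in mesothelial-like cells (0.392 CPM, 0.0099 to 2.18) and 0 in mesenchymal and fibroblast-like cells.

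In the yolk sac nearly all Tbx4 UMIs were in the smooth muscle-like cells. They held 10 of its 11 YS UMIs, in 7 of 95 cells (7.37%) at 4.47 CPM (2.14 to 8.22). The other UMI was in the unnamed cluster of 56 cells closest to megakaryocytes by its markers. The other wall classes had 0 UMIs, which allows up to 1.17 CPM (3 counts) in mesothelial-like cells. It allows 4.01 CPM in mesenchymal and fibroblast-like, 4.04 in endothelial-like and 4.01 in extraembryonic endoderm-like cells. A lower level than in smooth muscle-like cells is not shown in these last classes. Tbx4 and its neighbour Tbx2 were seen in the same cells: of 7 smooth muscle-like cells with Tbx4, 5 had Tbx2 (71.4%, 29.0 to 96.3), against 4 of 88 without (4.55%, 1.25 to 11.2). All 4 smooth muscle-like cells with Tbx5 also had Tbx4. Tbx3 and Tbx2, nested in EB, met in 2 of 775 YS cells, and in 0 smooth muscle-like cells, of which 6 had Tbx3 and 9 had Tbx2. Over all YS cells Tbx2 was in 6.67% (0.818 to 22.1) of those with Tbx3 and 2.55% (1.54 to 3.95) of the others. These intervals overlap, so the few shared cells show neither a pairing nor its absence. With so few cells the YS intervals stay wide.

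The T-box gene with the clearest wall level was Tbx20, outside the 6. It was 177.4 CPM (168 to 188) in the wall and 0.313 (0.065 to 0.916) in the blood classes. The level was 261.5 CPM in smooth muscle-like, 232.4 in mesenchymal and fibroblast-like and 189.1 in mesothelial-like cells, found in 92.9% to 97.9% of cells, against 6.73 CPM in endothelial-like cells and 0 in extraembryonic endoderm-like cells. Tbx20 and Tbx2 were both found in the smooth muscle-like class, Tbx20 in 93 and Tbx2 in 9 of its 95 cells. They parted in the extraembryonic endoderm-like cells, which had Tbx2 and no Tbx20 UMI. They also parted in the mesothelial-like and the mesenchymal and fibroblast-like cells, which had Tbx20 beside 1 and 0 UMIs of Tbx2.

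**Figure D4:**
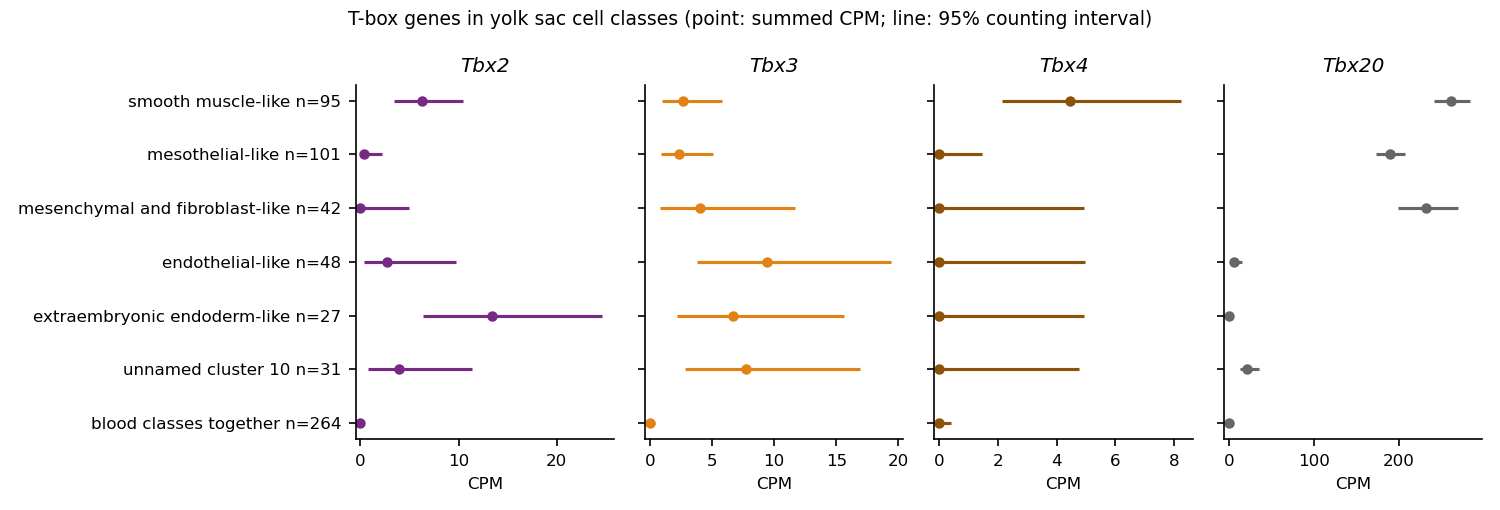
Level of Tbx2, Tbx3, Tbx4 and Tbx20 (x axes, CPM, each with its own scale) in classes of yolk sac cells (y axis, with the number of cells). Points are summed levels and lines 95% Poisson counting intervals. Tbx4 is above 0 only in smooth muscle-like cells among the classes shown. Its interval there overlaps those of the mesenchymal and fibroblast-like, endothelial-like, extraembryonic endoderm-like and unnamed classes. Tbx2, Tbx3 and Tbx4 are at 0 in the 264 cells of the blood classes.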

How the data were processed

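Single-cell RNA was measured in 2 libraries. The authors deposited unfiltered whole-number UMI counts of each gene in each barcode, made against mm10 per the submitters' processing notes, with the aligner, counter and annotation not given in the sources used here. Cells were kept by the limits above, and doublets were left in (Scrublet marked 3 EB and 2 YS cells). Cell totals were 50691307 UMIs in EB (6233 to 99304 per cell) and 24184081 in YS (6557 to 114332). Each library was clustered alone (scanpy 1.11.5, leidenalg 0.10.2, 2000 variable genes, 30 components, 15 neighbours, resolution 1, seed 1). A name needed at least 3 enriched markers (2-fold, in 25% of cells), a mean log2 difference of 0.5 with 20 CPM added, and 2 markers among the 10 leading genes. Empty droplets were barcodes of rank 10001 to 50000. Pearson's r used logged counts per 10000. Coordinates came from GENCODE M21, motif sequences from RefSeq. The named genes were the 6 members, the other 11 T-box genes, 37 listed network genes, and up to 6 genes of highest r per member, of which part are given; Cdx2, Bmp4, the genes of single YS cells and the lowest r were picked out after their values were seen. The members and lists were chosen with earlier results of these data known. Intervals and shares were tested on simulated data. Alternatives were cell limits, thinning, detection at 2 UMIs, edgeR 4.0.16 scaling (TMM) and clustering settings.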

Additional observations from a re-analysis of the deposited data

How the results depend on the processing

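Over 291 recomputed values, 238 stayed inside the 95% counting interval of the reported value, 52 moved outside it and 1, whose reported interval excluded 0, changed direction. Numbers of genes past 2-fold have no interval, and were sorted into these groups by their ratio to the reported number. The difference in Tbx3 share beside Tbx6, reported as 1.23 points with an interval that includes 0, was negative under 4 alternatives (-0.682 at the higher UMI minimum, -0.055 at 5% mitochondrial UMIs, and the values given below). No paired analysis was possible because each group is 1 library and no test was made. Removing the doublets that Scrublet marked, other mitochondrial limits (5% and 20%), edgeR TMM scaling, leaving the erythroid-like cells out of YS and leaving out the barcodes found in both libraries (34 values, an alternative chosen after seeing the data) moved none of the values recomputed under them.

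The share of cells in which a gene is detected depends on depth, as does co-detection. At a UMI minimum 2 times as high as reported, T was in 78.5% and Tbx3 in 45.6% of EB cells, and the 1 YS cell with T was lost (0 CPM, 0% of cells). At a minimum of 1000 UMIs, T was in 72.6%, Eomes in 70.7% and Tbx3 in 41.0% of EB cells, and beside T the share with Eomes was 17.5 points higher and that with Tbx3 changed by -4.62 points.

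When at least 2 UMIs were asked for, T was in 63.0%, Eomes in 60.6%, Tbx3 in 27.7%, Tbx6 in 4.85%, Tbx2 in 2.82% and Tbx4 in 0% of EB cells, and Tbx2 was in 0.516%, Tbx3 in 0.387%, Tbx4 in 0.258% and Tbx6 in 0% of YS cells. The difference in share, cells with the first gene minus cells without, was then 6.31 points for Tbx6 beside T, -4.89 for Tbx2 beside T, 0.860 for Tbx6 beside Eomes, -8.31 for Tbx3 beside Tbx6 and 8.33 for Tbx2 beside Tbx3.

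With each cell thinned to 6000 UMIs, EB shares were 53.5% for T, 48.2% for Eomes, 19.0% for Tbx3, 3.94% for Tbx6, 2.45% for Tbx2 and 0% for Tbx4 (0 CPM), and EB Tbx6 was 7.54 CPM. YS levels were 1.08 CPM for T, 1.94 for Tbx3, 0.860 for Tbx4 and 0 for Tbx6, with shares of 1.16% for Tbx3, 0.645% for Tbx2, 0.387% for Tbx4 and 0% for Tbx6. Thinned differences were 3.68 points for Eomes, 1.38 for Tbx6 and -3.77 for Tbx2 beside T, 9.38 for Tbx3 beside Eomes, -8.54 for Tbx3 and -1.14 for Tbx2 beside Tbx6, and 4.58 for Tbx2 beside Tbx3. Tbx6 beside Eomes reversed, to -1.85 points.

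With no minimum of UMIs, 5720 genes were scored as 2-fold higher in YS, against 3364. A count of 0 was set to the floor of 3 counts in this score. The 5720 therefore include genes with 0 YS UMIs and fewer EB UMIs than the floor, such as Tbx15 (2 in EB, 0 in YS), which are not shown to be higher in YS. At clustering resolution 0.6 the highest cluster had 353.8 CPM of T, 19.8 of Tbx6 and 16.7 of Tbx2, and at 1.5 it had 32.5 of Tbx6. The highest T cluster at 0.6 shared 12 cells with the reported one, which had been 128 cells, so the germ cell-like cluster was not the highest at every resolution. At 1.5 it shared 124 cells. The highest Tbx6 cluster at 0.6 shared 44 of 192 cells. The pairs within clusters as levels and after thinning were chosen after seeing the data.

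Each group is 1 library, so differences between cultures or litters could not be measured. Levels below about 1 CPM rest on a few UMIs, and a cell with no UMI of a gene is not shown to lack it.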

Other observations

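Tbx18, outside the 6 genes, had 29 of its 31 YS UMIs in 2 cells of the unnamed cluster led by Id2, Crabp2 and Sox11, with 16 and 13 UMIs. Both cells also had Tbx2, with 2 and 1 UMIs. The T cell of the same cluster had 0 UMIs of Tbx18. In EB cells Tbx1, another T-box gene, was 4.77 CPM (2.67 to 7.86) in the germ cell-like cluster, on 15 UMIs, and 2.49 CPM (1.24 to 4.46) in the unnamed cluster led by Tgfb2 and Lgals3, on 11 UMIs, with overlapping intervals. Mga was found at between 26.5 and 53.2 CPM in all 13 EB clusters.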
